A study of Mus musculus with 576 samples.

Results

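Polycomb genes were followed through single hematopoietic stem cells (HSCs) of the mouse as 9 members, the Polycomb repressive complex 2 (PRC2) genes Ezh2, Ezh1, Eed and Suz12 and the Polycomb repressive complex 1 (PRC1) genes Ring1, Bmi1, Cbx2, Cbx7 and Cbx8. Each member was found by its Ensembl gene identifier, which gave 9 of the 46078 genes counted. All 9 passed the filter for comparison, a mean of at least 5 reads per 1000000 gene reads (CPM) over the 6 groups, as did 11080 genes in all. RNA was read from 576 cells that the labels call long-term HSCs, taken from marrow of the leg bones and sorted as CD150+, CD48-, cKit+ and Sca1+. They form 6 groups of 96 cells by p27 marker class and treatment: LPS p27 high, LPS p27 low, LPS p27 negative, control p27 high, control p27 low and control p27 negative. p27 is the cyclin-dependent kinase inhibitor made from Cdkn1b, and LPS is lipopolysaccharide, the bacterial outer membrane component that sets off innate immune signalling. Strain, age, sex, the number of animals, the LPS dose and time and the way p27 was read out are not in the labels.

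Cells with at least 50000 gene reads were kept, which left 547 of 576 cells with 52163 to 1942773 gene reads each. The kept cells numbered 93, 90 and 92 in p27 high, p27 low and p27 negative LPS cells and 84, 93 and 95 in p27 high, p27 low and p27 negative control cells. Median reads per cell were 284633, 287585 and 439919 in the p27 high, p27 low and p27 negative LPS groups and 229697, 224003 and 390369 in the p27 high, p27 low and p27 negative control groups, so the p27 negative cells were the deepest in both treatments. The stem cell label was set beside 9 HSC markers, all of which had reads in every group. Kit, Ly6a and Slamf1 among them encode cKit, Sca1 and CD150, which the sort used. Their reads are thus no separate check of the label. The 9 markers summed to 3187, 2400 and 1626 CPM in p27 high, p27 low and p27 negative LPS cells and to 3149, 2291 and 1596 CPM in p27 high, p27 low and p27 negative control cells. These sums hid changes in LPS over control, given as log2 differences of (CPM + 1). In both p27 high and p27 low cells 7 of the 9 were negative, while 44.1% and 39.7% of all genes tested were positive. Ly6a was higher by 1.88, 3.14 and 3.17 in p27 high, p27 low and p27 negative cells. Fgd5, Hlf and Procr differed by -5.08, -2.52 and -1.85 in p27 low cells. T cell and macrophage markers were near 0, with sums of at most 4.42 and 19.2 CPM. Because each library is 1 cell and no animal is named, each group counts as 1 sample. There is no replicate check, and no p-value is given. A level is the CPM of the reads summed over a group's kept cells, with an exact 95% Poisson interval in parentheses at the values that matter most. A share is the percentage of cells with a read after every cell was thinned to 50000 reads, with an exact 95% Clopper-Pearson interval where given. The Poisson interval covers the counting of reads only. It does not cover the counting of molecules, since these reads carry no molecular identifiers, or differences between cells. The Clopper-Pearson interval takes the cells of a group as separate draws. Neither covers differences between animals. Each group was also divided by the cell numbers in the labels into cells 1 to 32, 33 to 64 and 65 to 96, which the labels do not call plates or replicates. The range over these 3 sets shows how far a level moves within a group.

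Polycomb proteins keep genes silent through chromatin. PRC2 methylates lysine 27 of histone H3 with Ezh2 or Ezh1 as its catalytic subunit, which works only when bound to Eed and Suz12. PRC1 attaches ubiquitin to histone H2A with Ring1 or Rnf2, and each PRC1 complex holds a PCGF protein such as Bmi1. CBX proteins let PRC1 bind the methyl mark that PRC2 leaves. In blood, Bmi1 is known as a factor for HSC self-renewal that silences Cdkn2a, Ezh2 is known to be abundant in dividing progenitors, and Ezh1 is known for its part in keeping adult HSCs.

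The promoters of Ezh2, Ezh1 and Suz12 are shown because Ezh2 and Ezh1 are the catalytic pair on which the results turn, and because Ezh2 and Suz12 hold the letters of an E2F site, the motif of many cell cycle genes. Each is the 250 bases before and 50 bases after the RefSeq start in GRCm38.p6, written 5′ to 3′ on the gene's strand, with capitals on E2F letters. They span chr6:47594981-47595280 on the minus strand for Ezh2, chr11:101226414-101226713 on the minus strand for Ezh1 and chr11:79992856-79993155 on the plus strand for Suz12.
Ezh2: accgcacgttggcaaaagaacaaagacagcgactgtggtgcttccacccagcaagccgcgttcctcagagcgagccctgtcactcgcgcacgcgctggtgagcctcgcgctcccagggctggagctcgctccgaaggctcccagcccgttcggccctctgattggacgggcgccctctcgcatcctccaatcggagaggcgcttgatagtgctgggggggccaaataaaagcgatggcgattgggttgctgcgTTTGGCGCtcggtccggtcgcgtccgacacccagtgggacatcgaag
Ezh1: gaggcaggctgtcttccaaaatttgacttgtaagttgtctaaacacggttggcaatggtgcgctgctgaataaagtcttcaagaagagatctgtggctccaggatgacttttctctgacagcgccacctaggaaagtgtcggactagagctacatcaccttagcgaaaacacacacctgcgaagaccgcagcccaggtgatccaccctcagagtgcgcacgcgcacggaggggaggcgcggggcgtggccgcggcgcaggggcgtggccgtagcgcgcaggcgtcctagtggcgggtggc
Suz12: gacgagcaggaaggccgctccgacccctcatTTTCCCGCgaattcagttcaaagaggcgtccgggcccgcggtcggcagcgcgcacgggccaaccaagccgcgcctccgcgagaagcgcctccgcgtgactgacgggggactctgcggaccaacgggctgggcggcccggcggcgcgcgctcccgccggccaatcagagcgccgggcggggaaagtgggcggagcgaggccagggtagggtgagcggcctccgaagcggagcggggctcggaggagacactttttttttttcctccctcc

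RefSeq promoters were found for 8 of the 9 members, all but Cbx2. The letters TTTCCCGC, TTTGGCGC, TTTCGCGC and TTTGCCGC, on either strand, stood in 2 of the 8, against 2.26% of 32851 promoters of the same length. In Ezh2 the match covered bases 254 to 261 of the 300, just past the start, and in Suz12 bases 32 to 39. The letters TTTGAA on either strand, the core of the CHR motif of late cell cycle genes, stood in Eed, Suz12 and Cbx7, against 17.9% of promoters. No match in these promoters overlapped a match of the other motif. These matches describe letters in a window and do not show that a factor binds there.

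Ezh2, the main catalytic subunit of PRC2 in dividing cells, was lower in p27 high and p27 low cells than in p27 negative cells, with LPS and without. Its gene lies on mm10 chromosome 6, minus strand, bases 47530139 to 47595341 (ENSMUSG00000029687). It stood at 67.6 CPM (64.8 to 70.5) in LPS p27 high cells, 62.2 CPM (59.3 to 65.2) in LPS p27 low cells and 138 CPM (134 to 141) in LPS p27 negative cells. Without LPS it stood at 73.9 CPM (70.3 to 77.6) in p27 high, 65.7 CPM (62.8 to 68.6) in p27 low and 209.8 CPM (205 to 214) in p27 negative cells. The p27 high and low levels lay close together in each treatment, and the range over the 3 sets of cells in every p27 negative group, at lowest 117 CPM with LPS and 137 CPM without, was above that of the p27 high and low groups, which reached at most 82.8 CPM with LPS and 116 CPM without. Among single cells the Ezh2 level of the median cell was 5.83, 6.71 and 98.5 CPM in p27 high, p27 low and p27 negative LPS cells and 5.83, 5.06 and 149.8 CPM in p27 high, p27 low and p27 negative control cells. The lowest cell had 0 in every group, and the highest cell ranged from 458 to 1403 CPM over the groups. At equal depth Ezh2 was read in 44.1% (33.8 to 54.8), 44.4% and 79.3% (69.6 to 87.1) of p27 high, p27 low and p27 negative LPS cells and in 38.1% (27.7 to 49.3), 41.9% and 77.9% (68.2 to 85.8) of p27 high, p27 low and p27 negative control cells. For scale, no T cell marker was read in more than 1.19% of the cells of a group at that depth.

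On the log2(CPM + 1) scale Ezh2 differed by -1.02 in p27 high against p27 negative cells with LPS and by -1.49 without. For p27 low against p27 negative cells it differed by -1.13 with LPS and by -1.66 without. The sign was the same in all 3 sets of cells in each of these 4 comparisons. Over the sets the p27 high difference ran from -1.48 to -0.50 with LPS and from -2.14 to -0.45 without, and the p27 low difference from -1.34 to -0.88 with LPS and from -3.48 to -1.004 without. The LPS p27 high difference sat at the 2-fold limit and was -0.95 in cells with at least 200000 reads. Between p27 high and p27 low cells Ezh2 differed by 0.12 with LPS and 0.17 without. LPS over control gave -0.13, -0.08 and -0.60 in p27 high, p27 low and p27 negative cells. The markers of proliferation moved with Ezh2: the 14 markers summed to 1679, 1502 and 5549 CPM in p27 high, p27 low and p27 negative LPS cells and to 1363, 1365 and 5828 CPM in p27 high, p27 low and p27 negative control cells, and none was at 0. In p27 high against negative cells 11 of the 14 were past 2-fold lower with LPS and 10 without, with median log2 differences of -3.22 and -4.35. Of all 11080 genes, 811 were past 2-fold lower with LPS and 939 without. Within a group, the Spearman correlation over cells at equal depth between Ezh2 and the summed proliferation markers was 0.22, 0.03 and 0.33 in 93, 90 and 92 p27 high, p27 low and p27 negative LPS cells, and 0.45, 0.21 and 0.58 in 84, 93 and 95 control cells of the same classes. Ezh2 was not alone in this. The same correlation of Suz12 was 0.24, 0.16 and 0.21 in the LPS groups and 0.17, 0.03 and 0.43 in the control groups. That of Eed was 0.14, -0.11 and 0.16 with LPS and 0.23, -0.01 and 0.33 without. The other members lay between -0.17 and 0.19. Cells of a group share their source, so these are descriptions. Sums of other lineage markers also moved with p27 class. The 5 megakaryocyte markers summed to 228, 793 and 895 CPM in p27 high, p27 low and p27 negative LPS cells and to 275, 1124 and 1257 CPM in p27 high, p27 low and p27 negative control cells. The 6 erythroid markers summed to 69.02, 198 and 152 CPM in the same LPS groups and to 78.8, 315 and 662 CPM in the control groups, and none of either list was at 0. The 5 myeloid markers, with Ctsg at 0 throughout, ran the other way, at 283, 131 and 116 CPM with LPS and 300.4, 254 and 113 CPM without. The 5 B cell markers summed to 30.9 to 83.2 CPM over the groups. Single markers did not all follow the sums. In p27 high over p27 negative cells 4 of the 5 megakaryocyte markers were negative in each treatment, but Ppbp was 1.13 higher with LPS. Of 5 erythroid markers tested there, 3 were positive with LPS, Car1 by 2.11, and all 5 were negative without. Of all genes tested, 54.6% with LPS and 52.9% without were positive. The part of proliferation, of lineage and of the greater depth of p27 negative cells in the Ezh2 difference was not tested.

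**Figure D1:**
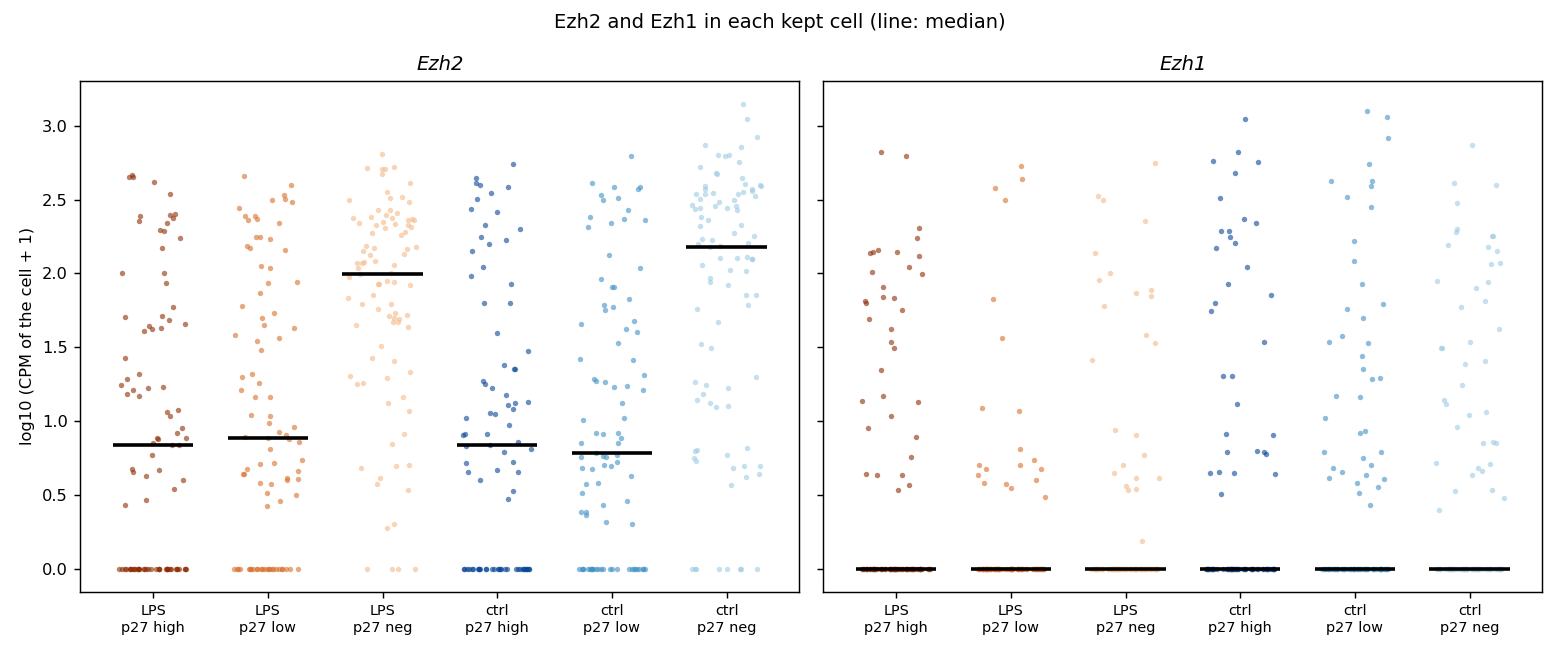
Level of Ezh2 and Ezh1 in each of the 547 kept cells, as log10 of (CPM of the cell + 1) on the y axis, for the 6 groups on the x axis (ctrl, control; neg, negative); each point is a cell and each line the group's median. Most p27 negative cells lie well above 0 for Ezh2, with medians of 98.5 CPM with LPS and 149.8 CPM without, while the median cell has 0 CPM of Ezh1 in all 6 groups.

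Ezh1, the paralog that can take the place of Ezh2 in PRC2, had its highest summed level in control p27 low cells, where 1 cell held much of it, and its lowest in LPS p27 low cells. Its gene lies on chromosome 11, minus strand, bases 101191115 to 101226463 (ENSMUSG00000006920). It stood at 38.1 CPM (36.1 to 40.3) in LPS p27 high, 13.97 CPM (12.6 to 15.4) in LPS p27 low and 19.4 CPM (18.1 to 20.6) in LPS p27 negative cells. Control cells had 60.7 CPM (57.5 to 64.1) in p27 high, 94.96 CPM (91.5 to 98.5) in p27 low and 31.98 CPM (30.3 to 33.8) in p27 negative. The 3 sets of LPS p27 low cells, at 0.957 to 31.9 CPM, all lay below the 3 sets of control p27 low cells, at 58.5 to 125 CPM, and the sets of LPS and control cells overlapped in the other p27 classes. The sets of control p27 low cells also overlapped those of control p27 high cells, at 40.7 to 84.8 CPM. LPS over control gave a log2 difference of -2.68 in p27 low cells, against -0.66 in p27 high cells and -0.70 in the p27 negative class. Ezh1 was read in 10% (4.68 to 18.1) of LPS p27 low and 24.7% (16.4 to 34.8) of control p27 low cells, and in 29.03% and 28.6% of LPS and control p27 high cells. The p27 negative cells had it in 19.6% with LPS and 28.4% without. These shares go against the levels in p27 high cells and among the control groups, so no order was read from them. Single cells carried much of the Ezh1 signal: the top cell held 22.1% to 42.3% of a group's reads. In control p27 low cells the top cell held 40.1%, and the log2 difference to control p27 negative cells was 1.54, or 0.95 without the top cell of each group. The p27 low difference between LPS and control was -2.70 without those cells and -1.72 with cells weighted equally, as the mean of each cell's CPM.

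The balance of the catalytic pair was computed per base of exon, as the share of Ezh2 in the sum of Ezh2 and Ezh1. Ezh2 made up 66.4%, 83.2% and 88.8% of the pair in p27 high, p27 low and p27 negative LPS cells and 57.5%, 43.5% and 87.96% in p27 high, p27 low and p27 negative control cells. The sets of LPS p27 low cells, at 61.5% to 98.9%, lay above those of control p27 low cells, at 17.6% to 57.3%, which overlapped those of control p27 high cells. The sets of p27 high cells overlapped between treatments, at 54.8% to 82.1% with LPS and 45.1% to 68.2% without. Both p27 negative groups lay at 81.6% or above in every set. At equal depth both genes were read in the same cell in 10, 4 and 13 p27 high, p27 low and p27 negative LPS cells. Control cells of the same classes had both in 7, 9 and 21 cells. Ezh1 with or without Ezh2 was read in 27, 9 and 18 LPS cells and in 24, 23 and 27 control cells of those classes. Whether the 2 were read together less often than their shares of cells allow was not tested. Ezh1 without Ezh2 was read in 17, 5 and 5 of the same LPS groups and in 17, 14 and 6 of the control groups. Neither was read in 35, 45 and 14 LPS cells and in 35, 40 and 15 control cells of the 3 classes. A cell without a read at this depth may still express the gene.

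**Figure D2:**
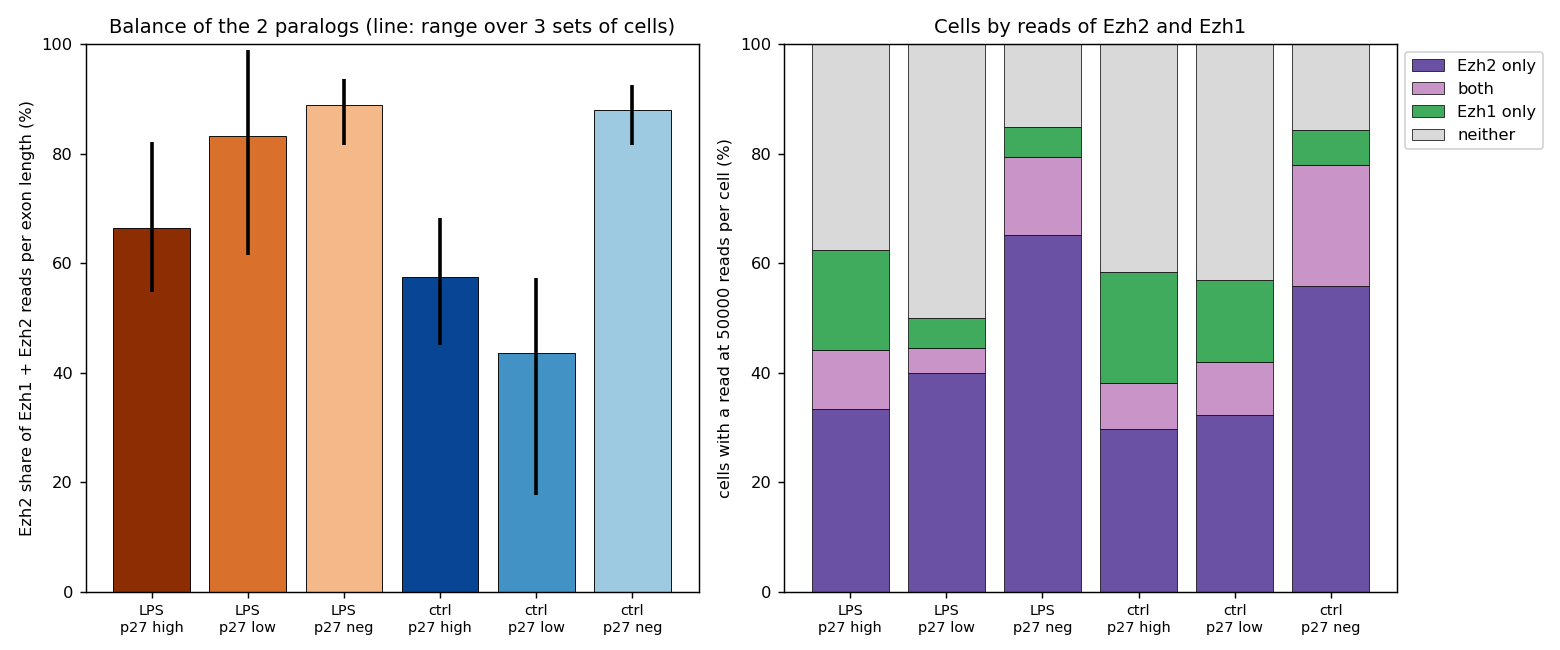
Left, share of Ezh2 in the sum of Ezh1 and Ezh2 reads per exon length (y axis, %) in the 6 groups, with lines for the range over 3 sets of cells; right, share of cells (y axis, %) with a read of Ezh2 only, both, Ezh1 only or neither at 50000 reads per cell. The Ezh2 share is 88.8% and 87.96% in the p27 negative groups and lowest, at 43.5%, in control p27 low cells.

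The summed levels of Eed and Suz12, the noncatalytic core of PRC2, had another order over the LPS groups than that of Ezh2. In control cells Eed had the order of Ezh2, and Suz12 was also highest in p27 negative cells. The sets of cells did not keep these orders of Suz12. Its p27 high over p27 negative difference with LPS was 0.20, with -0.59 to 0.89 over sets. Without LPS its p27 low over p27 negative difference was -0.16, with -1.32 to 0.89. The share of cells with either gene was highest in the p27 negative cells of both treatments. Eed, which binds the methyl mark and stimulates the enzyme, lies on chromosome 7, minus strand, bases 89954654 to 89980983 (ENSMUSG00000030619). It stood at 119 CPM (115 to 123) in LPS p27 high, 50.3 CPM (47.7 to 53) in LPS p27 low and 75.4 CPM (73.01 to 77.9) in LPS p27 negative cells. The control cells had 79.4 CPM in p27 high, 54.6 CPM in p27 low and 106 CPM in p27 negative. In p27 high against low cells with LPS the log2 difference was 1.23, with 0.75 to 1.80 over the 3 sets, and it was 0.86 with cells weighted equally. The same contrast without LPS gave 0.53, with -0.19 to 2.19 over sets. Against p27 negative control cells Eed differed by -0.41 in p27 high, with -0.60 to -0.22 over sets. In p27 low it differed by -0.94, with -2.48 to -0.28. With LPS these 2 differences were 0.65, with -0.38 to 1.01, and -0.58, with -1.13 to 0.05. Eed was read in 51.6%, 38.9% and 56.5% of p27 high, p27 low and p27 negative LPS cells and in 33.3%, 27.96% and 49.5% of p27 high, p27 low and p27 negative control cells.

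Suz12, the scaffold that holds PRC2 together, lies on chromosome 11, plus strand, bases 79993106 to 80034123 (ENSMUSG00000017548). It stood at 44.8, 30.7 and 38.97 CPM in p27 high, p27 low and p27 negative LPS cells and at 26.2, 46.95 and 52.4 CPM in p27 high, p27 low and p27 negative control cells. No comparison of Suz12 was past 2-fold, and the nearest was p27 high over p27 negative without LPS, at -0.97 with a range over sets of -2.70 to 0.20. Its share of cells was highest in the p27 negative groups, at 50% with LPS and 43.2% without, against 30.95% to 34.4% in the other groups. Eed, Suz12 and at least one of the catalytic pair were read in the same cell in 18.3%, 7.78% and 30.4% of p27 high, p27 low and p27 negative LPS cells and in 9.52%, 5.38% and 26.3% of p27 high, p27 low and p27 negative control cells.

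**Figure D3:**
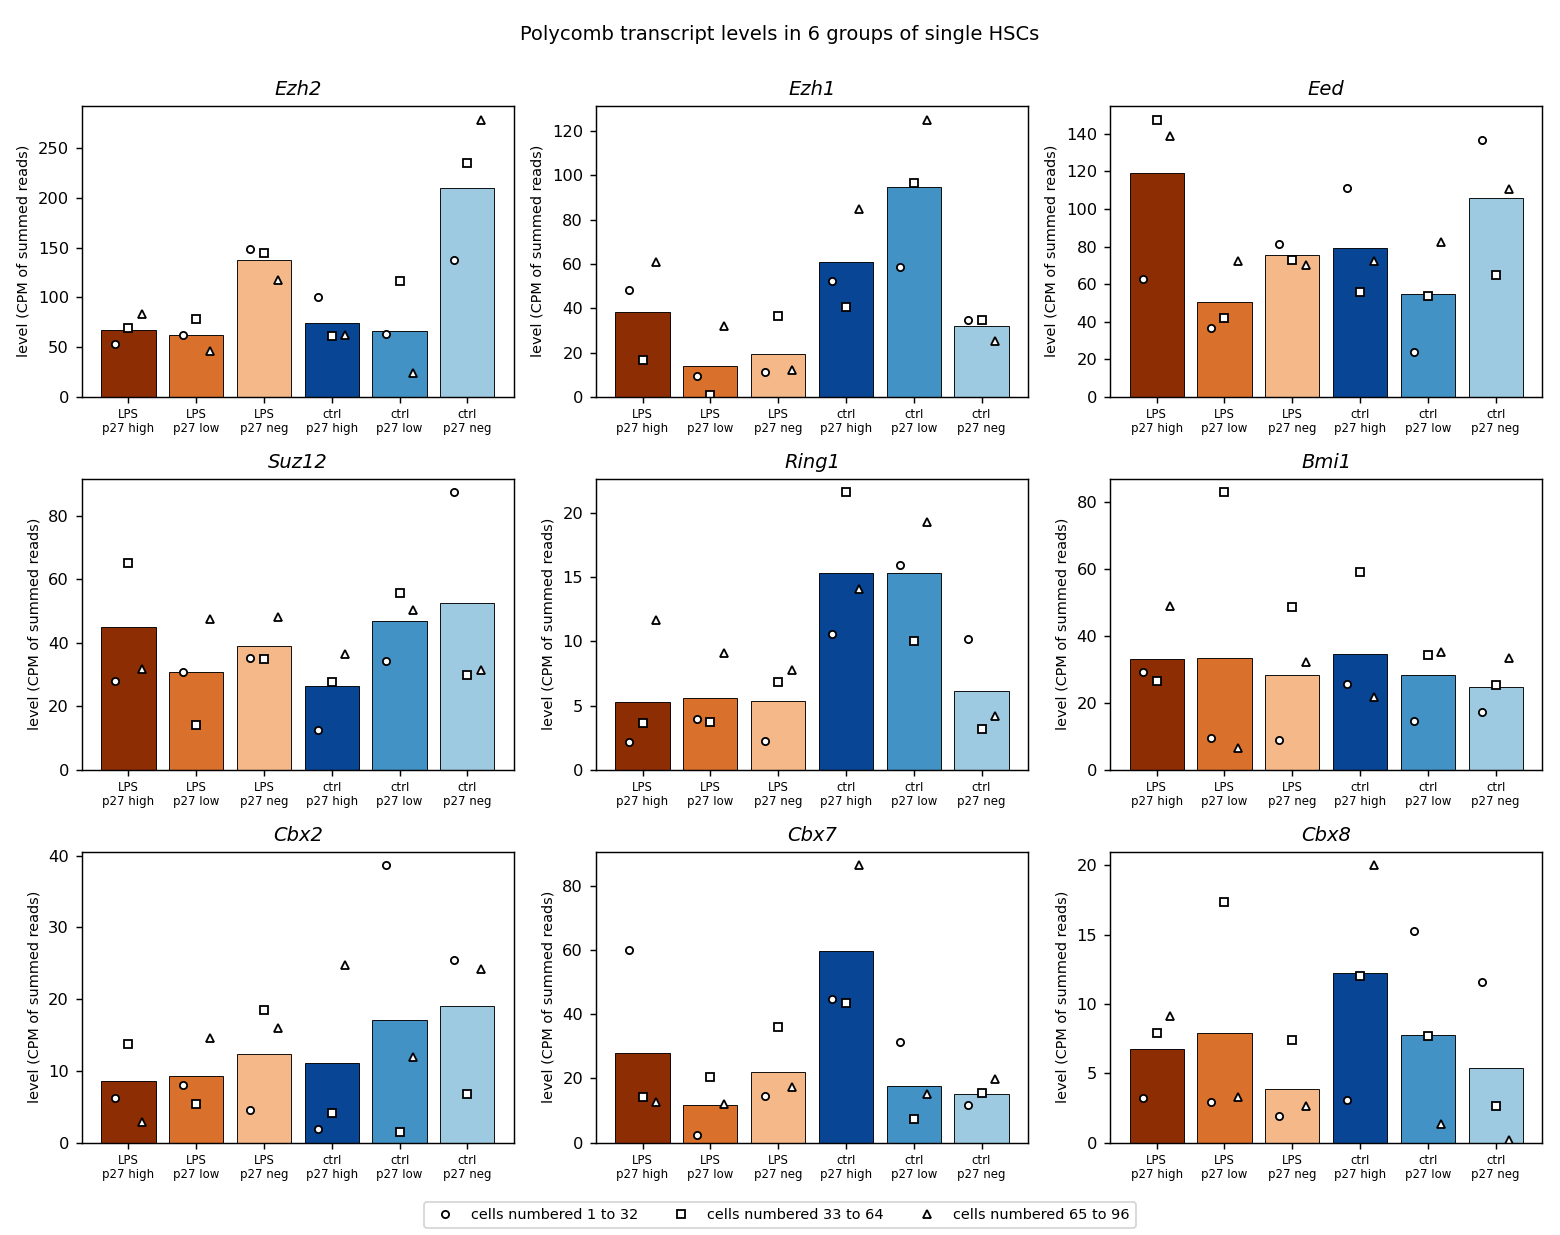
Levels of the 9 Polycomb genes, as CPM of reads summed over kept cells (y axis, from 0), in the 6 groups (x axis; ctrl, control; neg, negative); bars are the whole group, and circles, squares and triangles are the cells numbered 1 to 32, 33 to 64 and 65 to 96. Ezh2 is highest in the p27 negative groups, at 138 CPM with LPS and 209.8 CPM without, Cbx7 is highest in control p27 high cells, at 59.9 CPM, and the bars of Bmi1 lie between 24.6 and 34.6 CPM, while its sets spread from 6.40 to 82.8 CPM.

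Ring1, a catalytic RING subunit of PRC1, was scarce in all LPS groups. Its gene lies on chromosome 17, minus strand, bases 34020792 to 34024680 (ENSMUSG00000024325). It stood at 5.26, 5.58 and 5.34 CPM in p27 high, p27 low and p27 negative LPS cells and at 15.3, 15.3 and 6.16 CPM in p27 high, p27 low and p27 negative control cells. LPS over control gave log2 differences of -1.38 in p27 high cells and -1.31 in p27 low cells, with the same sign in all 3 sets of each, against -0.17 in p27 negative cells. The p27 low difference ran from -1.78 to -1.01 over sets, and the p27 high one from -2.28 to -0.25. Against p27 negative cells without LPS, p27 high and p27 low cells both differed by 1.19, and the first of these was 0.81 without the top cell of each group. The share of cells with Ring1 was 13.98% in LPS p27 high and 13.1% in control p27 high cells, which goes against the levels, so no order was read from it. In p27 low cells it was 13.3% with LPS and 24.7% without. Rnf2, the other RING subunit, was more abundant than Ring1 per kilobase of exon, at 19.7 to 36.2 against 1.62 to 4.73 CPM per kilobase over the groups, and was past 2-fold in none of the 9 comparisons. It stood at 149.5, 84.8 and 89.7 CPM in p27 high, p27 low and p27 negative LPS cells and at 82.2, 110.4 and 81.4 CPM in p27 high, p27 low and p27 negative control cells.

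Bmi1, the PCGF subunit tied to self-renewal, was the most even member. Its gene lies on chromosome 2, plus strand, bases 18677018 to 18686629 (ENSMUSG00000026739). It stood at 33.2, 33.3 and 28.3 CPM in p27 high, p27 low and p27 negative LPS cells and at 34.6, 28.3 and 24.6 CPM in p27 high, p27 low and p27 negative control cells. The 6 levels spanned 0.48 on the log2 scale, and no comparison was past 2-fold. Within groups its sets were less even, from 6.40 to 82.8 CPM in LPS p27 low cells, where 1 cell held 35.2% of the reads. Bmi1 was read in 22.6%, 18.9% and 38.04% of p27 high, p27 low and p27 negative LPS cells and in 22.6%, 19.4% and 28.4% of p27 high, p27 low and p27 negative control cells.

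The 3 CBX members are alternative readers of the methyl mark within PRC1, and Cbx7 is known from mouse work as the one that favours HSC self-renewal, while Cbx2 and Cbx8 favour differentiation. Cbx7, on chromosome 15, minus strand, bases 79915807 to 79971119 (ENSMUSG00000053411), stood at 28.02, 11.7 and 22.1 CPM in p27 high, p27 low and p27 negative LPS cells. Its exons share 100 bases with Apobec3 on the other strand, which had 109724 reads, and since the strand setting is not given in the sources used here, reads in those bases cannot be told apart. Ezh2, Eed and Suz12 share 174, 261 and 178 exon bases in the same way with genes of 306, 466 and 115 reads. Control cells had 59.9 CPM (56.7 to 63.2) in p27 high, 17.7 CPM (16.3 to 19.3) in p27 low and 15.2 CPM (14.01 to 16.4) in p27 negative. The 3 sets of control p27 high cells, at 43.5 to 86.5 CPM, all lay above the sets of control p27 low and p27 negative cells, which reached at most 31.2 CPM. Cbx7 was thus 1.91 higher on the log2 scale in p27 high than in p27 negative control cells, with 1.44 to 2.07 over sets, and 1.70 higher than in p27 low control cells, with 0.50 to 2.45 over sets. With LPS the difference of p27 high to p27 low cells was 1.19, but it was -0.51 in cells numbered 33 to 64 and 0.68 with cells weighted equally. LPS over control in p27 high cells gave -1.07, but 0.42 in cells numbered 1 to 32 and -0.86 without the top cell of each group. The share of cells with Cbx7, 19.4%, 13.3% and 20.7% in p27 high, p27 low and p27 negative LPS cells and 21.4%, 13.98% and 23.2% in p27 high, p27 low and p27 negative control cells, did not follow its level, so no order was read from it.

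Cbx2, on chromosome 11, plus strand, bases 119022962 to 119031270 (ENSMUSG00000025577), stood at 8.59, 9.29 and 12.4 CPM in p27 high, p27 low and p27 negative LPS cells and at 11.1, 17.2 and 19 CPM in p27 high, p27 low and p27 negative control cells. It was past 2-fold in no comparison. A single cell held 21.6% to 50.6% of the Cbx2 reads of a group. Cbx8, its neighbour on the minus strand, bases 119036305 to 119040969 (ENSMUSG00000025578), stood at 6.76, 7.92 and 3.86 CPM in p27 high, p27 low and p27 negative LPS cells and at 12.2, 7.79 and 5.39 CPM in p27 high, p27 low and p27 negative control cells. Its log2 difference of p27 high over p27 negative without LPS was 1.05, but -1.63 in cells numbered 1 to 32, and 1 cell held 27.7% to 59.8% of a group's reads. Per base of exon, Cbx7 made up 52.8%, 29.4% and 46.3% of the 3 CBX members in p27 high, p27 low and p27 negative LPS cells and 60.9%, 30.8% and 28.3% in p27 high, p27 low and p27 negative control cells. Cbx2 made up 24.7%, 35.5% and 39.5% in the same LPS groups and 17.2%, 45.4% and 53.98% in the control groups. The sets of control p27 high cells had Cbx7 at 54.2% to 84.2% and those of control p27 low and p27 negative cells at 16.3% to 50.5%. With LPS the p27 high sets, at 28.7% to 79.8%, overlapped those of p27 low, at 12.1% to 34.5%, and p27 negative cells, at 37.2% to 58.2%. The Cbx2 share of control p27 high sets, 5.49% to 23.6%, overlapped that of control p27 low sets, 9.61% to 51.2%.

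Compared per kilobase of exon, Eed and Ezh2 were the most abundant members, with means over the 6 groups of 21.1 and 15.4 CPM per kilobase. Suz12, Bmi1 and Ezh1 followed at 8.09, 7.64 and 5.81, then Cbx7, Cbx2, Ring1 and Cbx8 at 3.97, 3.03, 2.72 and 1.99 CPM per kilobase. The ranges of every pair of neighbours in this order overlapped over the 6 groups. The median cell had reads of 2, 2 and 3 of the 9 members in p27 high, p27 low and p27 negative LPS cells and of 2, 2 and 3 in p27 high, p27 low and p27 negative control cells, and at most 7 members were read in 1 cell.

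Over all 9 comparisons the number of members past 2-fold stayed between 0 and 4 of 9, to be read against the share of all 11080 genes past 2-fold in the same comparison. With LPS, p27 high over p27 negative had 1 member past 2-fold, Ezh2, against 19.2% of all genes. In p27 high over p27 low with LPS there were 3, Ezh1, Eed and Cbx7, all higher in p27 high cells, against 18.3% of genes, and none of the 3 was past 2-fold with cells weighted equally. In p27 low over p27 negative with LPS there was 1, Ezh2, against 17.4% of genes. Without LPS, p27 high over p27 negative had 4, Ezh2 lower and Ring1, Cbx7 and Cbx8 higher, against 20.9% of genes. There was 1 in p27 high over p27 low, Cbx7, against 16.6%, and there were 3 in p27 low over p27 negative, Ezh2 lower and Ezh1 and Ring1 higher, against 18.4%. LPS over control had 2 in p27 high cells, Ring1 and Cbx7, both lower, against 19.6% of genes. It had 2 in p27 low cells, Ezh1 and Ring1, both lower, against 24.4%, and 0 in p27 negative cells, against 16.4%. With 9 members, 1 or 2 past 2-fold is near the background. The counts of 3 and 4 were not tested against it, and they changed with the processing, as given below. Comparisons that share a group share its cells, so their counts are not separate evidence.

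**Figure D4:**
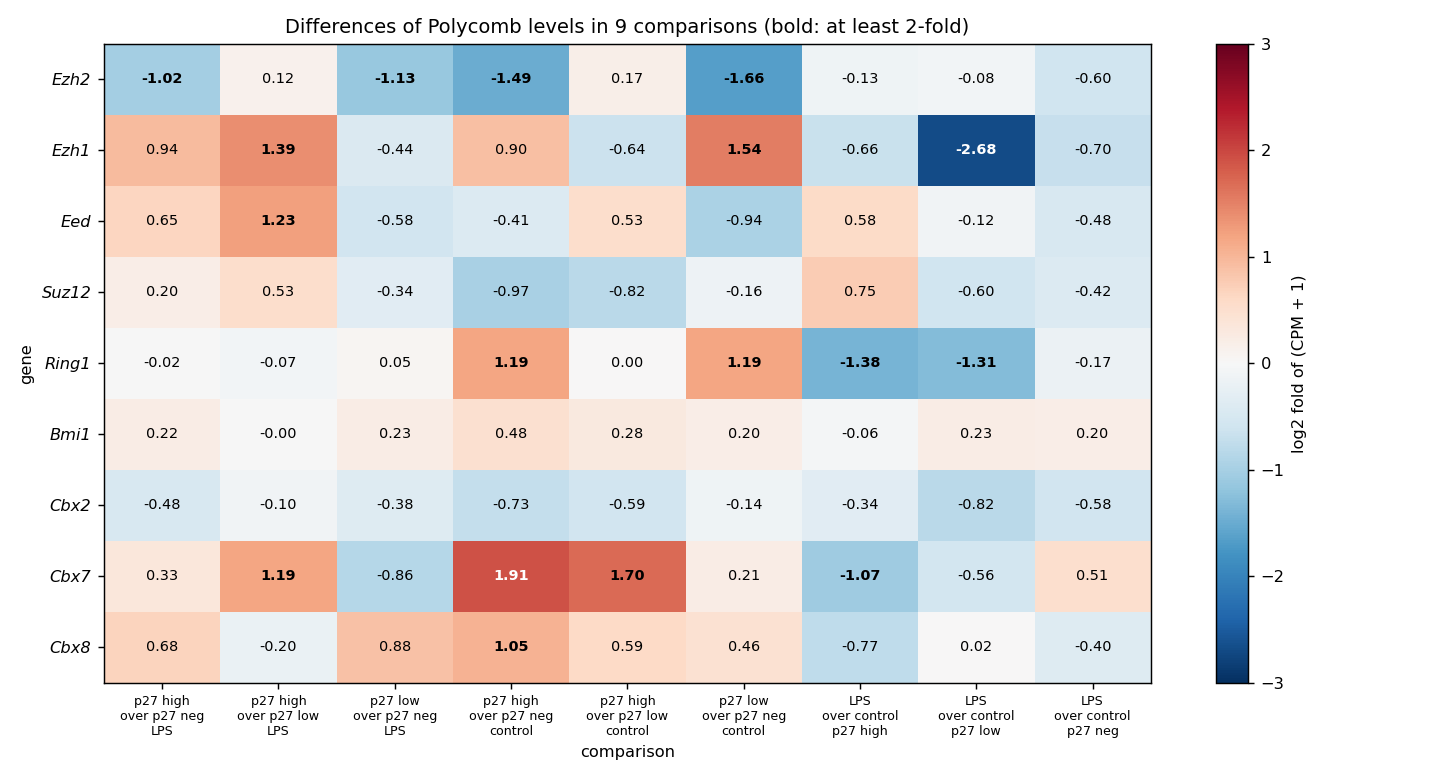
Log2 differences of (CPM + 1) of the 9 Polycomb genes (rows) in the 9 comparisons (columns; neg, negative), with colour from blue (lower in the first group named) to red (higher) and bold type at 2-fold or more. Ezh2 is at -1.02 to -1.66 in the 4 comparisons against p27 negative cells, and Ezh1 has the largest value, -2.68, for LPS over control in p27 low cells.

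For LPS over control, 2 of the 9 members had a positive and 7 a negative log2 difference in each p27 class, while 44.1%, 39.7% and 40.3% of all genes tested were positive in p27 high, p27 low and p27 negative cells. The members had medians of -0.34, -0.56 and -0.42 in p27 high, p27 low and p27 negative cells. All genes had medians of -0.10, -0.17 and -0.13. With scaling by trimmed means of M values (TMM), which moved those medians of all genes by 0.13, 0.15 and 0.12, the negative members numbered 5, 5 and 7. Ezh2 turned positive in p27 high and p27 low cells, Bmi1 in p27 high and Eed in p27 low cells. Nor did the sets of cells keep the count: in cells numbered 33 to 64 alone 8 members were positive in the p27 negative class, with a median of 0.91, and in cells numbered 1 to 32 alone 5 were positive in the p27 high class (median 0.04). For p27 high over p27 negative the members' medians were 0.22 with LPS and 0.48 without, against 0.07 and 0.05 for all genes. These medians changed sign as well, to -0.76 with LPS in cells numbered 33 to 64, to -0.29 without LPS in cells numbered 1 to 32 and to -0.01 without LPS when the top cell of each gene was left out.

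The rest of the Polycomb machinery, from lists of subunits, was mixed in direction. Of 7 PRC2 accessory genes tested, Phf1, a Polycomb-like partner of PRC2, and its paralog Phf19 were past 2-fold in p27 high over p27 negative cells, in opposite directions. Of all genes, 19.2% with LPS and 20.9% without were past 2-fold there. Phf1 stood at 15.02, 9.32 and 0.653 CPM in p27 high, p27 low and p27 negative LPS cells and at 29.9, 17.1 and 5.82 CPM in p27 high, p27 low and p27 negative control cells. In p27 high over p27 negative cells it was 3.28 higher on the log2 scale with LPS and 2.18 higher without, and the sets kept this sign. Phf19 stood at 3.48, 1.30 and 17.1 CPM in p27 high, p27 low and p27 negative LPS cells and at 5.80, 15.6 and 17.6 CPM in p27 high, p27 low and p27 negative control cells. Its p27 high over p27 negative difference was -2.01 with LPS and -1.45 without, but 1 cell held 71.6% and 73.8% of its reads in LPS and control p27 high cells and 82.9% in control p27 low cells. Jarid2, a cofactor that guides PRC2, was at 40.5, 123.6 and 73.6 CPM in p27 high, p27 low and p27 negative LPS cells and at 41.8, 65.5 and 24.7 CPM in p27 high, p27 low and p27 negative control cells. LPS over control gave it 1.54 in p27 negative cells.

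Among 9 CBX, PHC and SCM subunits of canonical PRC1, 3 that are not members were past 2-fold lower in LPS over control in p27 low cells, where 24.4% of all genes were past 2-fold, 1835 of the 11080 lower. Phc1, a Polyhomeotic protein that joins PRC1 complexes, stood at 38.4, 14.1 and 37.5 CPM in p27 high, p27 low and p27 negative LPS cells and at 46.3, 81.7 and 49.1 CPM in p27 high, p27 low and p27 negative control cells. Its LPS over control difference in p27 low cells was -2.46, and Scmh1 and Cbx6 differed there by -1.76 and -1.19. The same 3 genes were higher in p27 high than in p27 low cells with LPS, by 1.38, 1.82 and 1.88, though the sets of Scmh1 ran from -0.24 to 2.47 in that comparison. Of 5 PCGF genes tested, Pcgf5 was 1.17 higher with LPS in p27 low cells and Pcgf1 differed by -1.03 in p27 high over p27 negative without LPS. Of 14 variant PRC1 genes tested, E2f6, a repressor of the E2F family, differed by -1.44 in p27 high over p27 negative cells with LPS, at 19.8 against 55.6 CPM. The median of that list was -0.33 with LPS and -0.37 without in p27 high over p27 negative cells, with 9 of 14 negative in each. Of all genes tested, 54.6% and 52.9% were positive in the same comparisons.

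**Figure D5:**
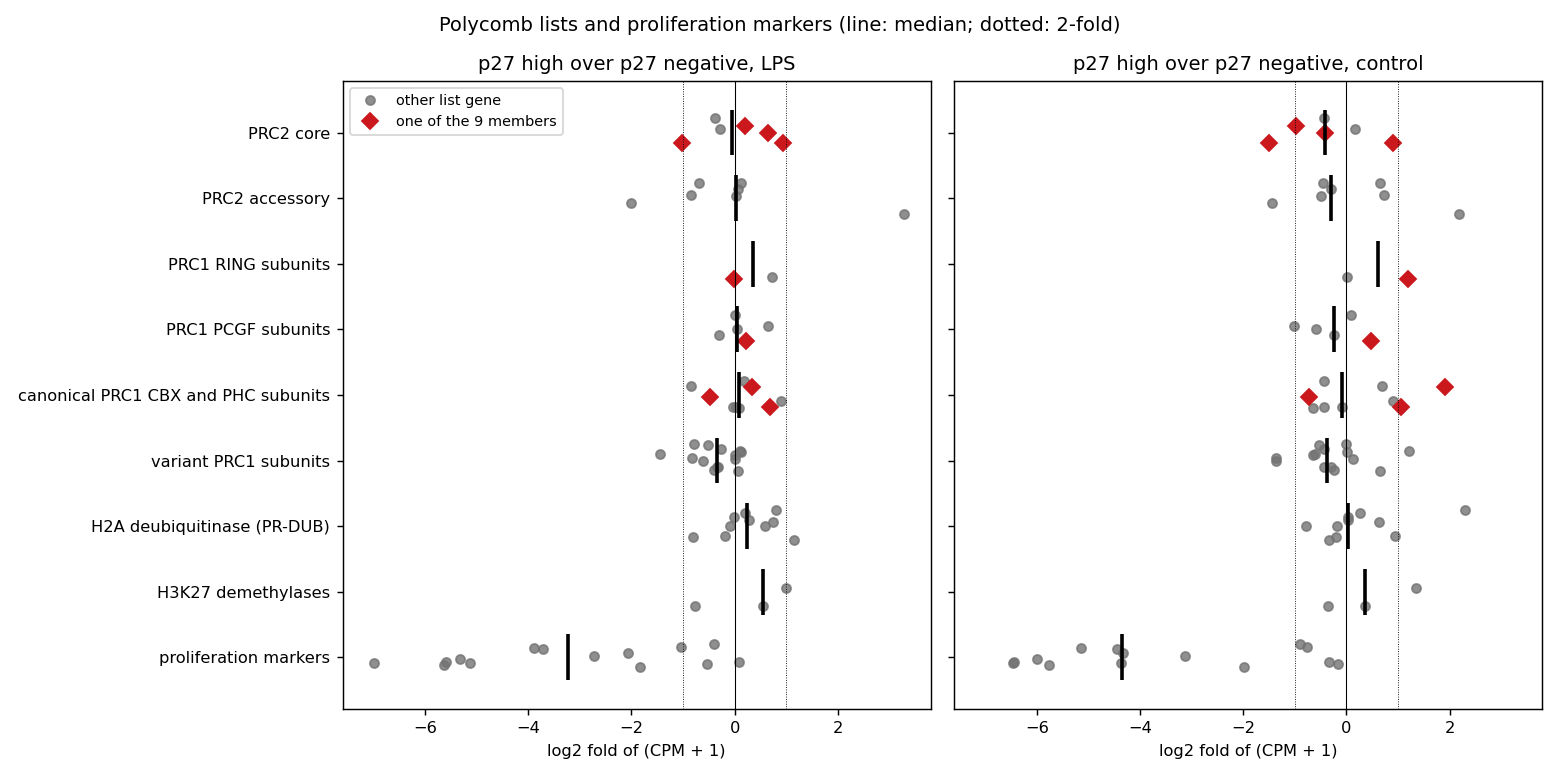
Log2 differences of (CPM + 1) for p27 high over p27 negative cells with LPS (left) and in control (right), x axis, for genes of the Polycomb lists and proliferation markers (y axis); red diamonds are the 9 members, grey points other genes, thick lines list medians and dotted lines 2-fold. The medians of the Polycomb lists lie between -0.42 and 0.60, and those of the proliferation markers at -3.22 and -4.35.

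Genes that Polycomb is known to hold silent in blood were mostly near 0. Cdkn2a, which encodes the p16 and p19 inhibitors silenced by Bmi1, had 0 reads in all 6 groups, where a floor of 3 counts allows at most 0.0612 to 0.138 CPM by group. Of the 7 listed genes, Hoxa9 and Hmga2 passed the filter, and the highest level of Cdkn2b, Ebf1, Pax5 and Lin28b in any group was 1.58 CPM. Hmga2 was 1.18 higher on the log2 scale in p27 high than in p27 negative cells without LPS, where 20.9% of all genes were past 2-fold. No other difference of this list was past 2-fold. Hoxa9, a stem cell homeobox gene, stood at 93.8, 59.3 and 64.6 CPM in p27 high, p27 low and p27 negative LPS cells and at 141, 110.8 and 80.4 CPM in p27 high, p27 low and p27 negative control cells.

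Genes with the pattern most like a member over the 6 groups were sought among 7972 genes with a mean of at least 20 CPM, by the root mean square difference of centred log2(CPM + 1). For Ezh2 these were Rad21 at 0.14, Slbp at 0.16 and Rpa3 at 0.18, a cohesin subunit, a histone mRNA binding protein and a replication protein. For Ezh1 they were Prkch at 0.17, Fgd2 at 0.19 and Serpinb6b at 0.22. For Eed they were Mcm7, Mfap1b and Abhd12 at 0.16 to 0.19, and for Suz12 Prkag1, Gstz1 and Prdm2 at 0.08 to 0.11. For Cbx7 they were Clcn7, Maml2 and Lpp at 0.24 to 0.27. Bmi1, which varied least, was nearest to Gm5963, Rps21 and Rpl13-ps3, a ribosomal gene and 2 pseudogenes, at 0.04 to 0.05. With 6 groups and 7972 genes searched, a close match is a description.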

How the data were processed

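RNA of single cells was prepared by the Picelli protocol and made into Nextera XT libraries, per the labels' protocols. The authors deposited 2 tables of raw counts, reads per gene without normalization, of 288 cells each. Per the submitters' processing notes, GSNAP placed reads on mm10 and HTSeq 0.6.0 made the counts. Strand setting, annotation release and read filters were not given in the sources used here. Of all reads, 34.1% were in genes, 2.06% in 92 spike-ins, 6.86% in no feature, 4.28% ambiguous and 52.7% not aligned, and only gene reads entered totals. Symbols and coordinates (1-based) came from GENCODE M21 by identifier, which named 45229 of 46078 genes. No pair of cells held identical counts. Cells were neither clustered nor screened for doublets, and mitochondrially encoded reads were not limited.

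Levels are CPM of reads summed over cells with at least 50000 gene reads. These totals were 33295314, 27775306 and 49018367 reads in p27 high, p27 low and p27 negative LPS cells and 21714440, 30435191 and 41583206 reads in p27 high, p27 low and p27 negative control cells. A log2 difference adds 1 CPM to each level, and a gene counts as past it at 2-fold or more, among genes with a mean of at least 5 CPM. With 1 sample per group no test was made. All 9 members are named. Of each other list up to 4 genes past 2-fold in the comparison described were eligible, largest first, and the 3 nearest genes were taken for members with a mean of at least 20 CPM. Hoxa9, Rnf2, Jarid2 and the Cdkn2a group are given for their lists and were not chosen by size. The members and lists were chosen with earlier results of these data known. The calculation was tested on simulated data. Alternatives were other pseudocounts, filters, scalings, cell sets and weights. Python 3.11.15, numpy 2.4.6, pandas 2.3.3, scipy 1.17.1, R 4.3.3 and edgeR 4.0.16 (TMM factors, as an alternative scaling alone) were used.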

Additional observations from a re-analysis of the deposited data

Results flagged for a closer look

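For 3 members the difference between LPS and control cells had opposite signs in different p27 classes and differed between them by at least 1 on the log2 scale. None of these differences was tested, since each group is 1 sample. The LPS over control difference of Eed was 1.058 greater in p27 high cells, at 0.58, than in p27 negative cells, at -0.48. That of Suz12 was 0.75 in p27 high cells, against -0.60 in p27 low and -0.42 in p27 negative cells, so it was 1.35 and 1.171 greater in p27 high cells. That of Cbx7 was -1.07 in p27 high and -0.56 in p27 low cells, against 0.51 in p27 negative cells, a difference of -1.582 for p27 high and of -1.075 for p27 low. Over the 3 sets of cells each of these LPS effects changed sign, except that of Suz12 in p27 low cells, which ran from -1.91 to -0.08. Comparisons of the same p27 class share cells, so the differences of 1 gene are not separate.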

How the results depend on the processing

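No paired analysis was possible because the results come from no test and the numbers in the labels only name cells. The counts of members past 2-fold were moved by over 1.5 times by several choices, and the causes were not tested. With cells weighted equally, the count was 2 in p27 high over negative and 2 in p27 low over negative with LPS, and 0 in p27 high over low with LPS and in LPS over control in p27 high cells. Under that weighting 13.6% to 21.8% of all genes were past 2-fold over the comparisons. Without the top cell of each gene the counts were 2, 4 and 1 in p27 high over negative with LPS, p27 low over negative with LPS and LPS over control in p27 high cells. The shares of all genes there were 19.3%, 17.8% and 20.3%. With 5 CPM added the counts were 0 in p27 high over negative with LPS and 2 in p27 high over negative without. They were 0 in LPS over control in p27 high cells and 1 in p27 low cells. The shares of all genes were 13.1%, 15.5%, 14.3% and 18.04% in the same order. With 0.1 CPM added p27 low over negative with LPS had 2, against 19.5% of all genes. Among genes with a mean of at least 20 CPM the count was 2 in p27 high over negative without LPS, against 15.2% of genes. It was 1 in LPS over control in both p27 high and p27 low cells, against 14.1% and 19.02%. Ring1, Cbx2 and Cbx8, at means of 8.83, 12.9 and 7.32 CPM, fell below that filter and could not add to these counts. TMM factors gave 1 in LPS over control in p27 high cells, against 18.97% of all genes. Cells with at least 200000 reads gave 2 in p27 low over negative with LPS and 3 in p27 high over low without. The shares of all genes in these were 18.7% and 22.04%. At 1.5-fold the counts were 4, 3, 7, 5, 5, 4 and 2 in p27 high over negative and p27 low over negative with LPS, p27 high over negative and p27 high over low without, and LPS over control in p27 high, p27 low and p27 negative cells. The share of all genes past 1.5-fold rose as well, to 38.4%, 35.4%, 41.3%, 35.1%, 40.2%, 44.5% and 35.4% in the same order. Cells numbered 1 to 32, 33 to 64 and 65 to 96 alone gave 4, 4 and 3 in p27 high over negative with LPS, 3, 4 and 3 in p27 low over negative with LPS, 4, 4 and 3 in p27 high over low without LPS and 5, 3 and 2 in LPS over control in p27 negative cells. The second set gave 6 in p27 high over low with LPS, 5 in p27 low over negative without, and 7 in LPS over control in p27 high and in p27 low cells. The third gave 4 in LPS over control in p27 high cells, and the first gave 5 in p27 low cells. The share of all genes past 2-fold rose in the sets too. It was 26.6% to 41.1% over the sets and comparisons, against 16.4% to 24.4% with all kept cells. Past 2-fold differences turned round in 3 cases: Cbx7 in p27 high over low with LPS (-0.51, cells 33 to 64), Cbx8 in p27 high over negative without LPS (-1.63, cells 1 to 32) and Cbx7 in LPS over control in p27 high cells (0.42, cells 1 to 32). Ezh2 against p27 negative cells stayed negative under all 13 alternatives for differences in each of the 4 comparisons. Of the 81 differences, 67 kept their sign with cells weighted equally, 76 under TMM factors, 73 without the top cell, and 58, 60 and 51 in the 3 sets. Many member levels rest on the reads of a few cells, among them those of Ezh1, Cbx2, Cbx7 and Cbx8.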

Other observations

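Genes of the enzyme families that undo Polycomb marks were also measured. The 3 listed genes of the histone H3 lysine 27 demethylase family include Kdm6b, which is inducible. Kdm6b stood at 24.1, 16.9 and 11.6 CPM in p27 high, p27 low and p27 negative LPS cells. It stood at 33.6, 28.2 and 12.6 CPM in control cells of the same classes. Without LPS Kdm6b was 1.35 higher on the log2 scale in p27 high than in p27 negative cells, with 0.88 to 2.51 over the 3 sets of cells. Kdm6a and Uty, its relatives on the sex chromosomes, differed by -1.22 and -1.38 in LPS over control p27 low cells, but the LPS over control difference of Uty was 1.33 in the p27 high class and 1.14 in the p27 negative class. The sex of the animals is not in the labels, so its part in these differences was not tested. Of 10 genes of the H2A deubiquitinase complex tested, Kdm1b had the largest difference in p27 high over p27 negative cells without LPS, 2.31, but the sets ran from -1.79 to 4.66. Its level was 52.8 CPM in control p27 high and 9.88 CPM in control p27 negative cells, and 1 cell held 32% of its reads in control p27 high cells.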
